A study of Mus musculus with 6 samples.

Results

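The genes described here are 7 markers of cortical inhibitory neurons that arise in the caudal ganglionic eminence: Lamp5, Sncg, Reln, Adarb2, Ndnf, Htr3a and Cnr1. They were taken by gene symbol from the deposited table of 54532 gene identifiers. All 7 were present once each, and all 7 passed the filter on low counts together with 17042 genes in all. Cortical messenger RNA was sequenced in 3 cell-treated and 3 control libraries, all from 5XFAD mice, an Alzheimer's disease model in which Thy1 regulatory elements drive mutant human transgenes in neurons. The cell-treated mice had received GABAergic interneurons derived from human induced pluripotent stem cells, per the series title, and the control mice had no cell therapy. Age, sex, the site of the graft and any sham injection of the controls are not given in the sources used here. The columns of the untreated group carry a disease name instead of the control name of the titles. The design text also names the mice that underwent cell therapy as its control group, the reverse of the titles. The titles were followed, the match of columns to them is inferred, and the sign of every difference rests on it.

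Inhibitory neurons of the cortex reach it from the medial and the caudal ganglionic eminences of the embryonic forebrain. Medial cells become mainly parvalbumin and somatostatin neurons, whereas caudal cells become the Lamp5, Sncg and Vip classes. Lamp5 cells include the neurogliaform cells, which lie densely in the outermost cortical layer, release GABA into the surrounding tissue and inhibit the tips of pyramidal cell dendrites. Sncg cells largely correspond to basket cells that carry cholecystokinin and the cannabinoid receptor, and whose GABA release that receptor turns down. None of the 7 genes is limited to these cells: Lamp5 and Cnr1 are also transcribed in excitatory neurons, Reln in somatostatin neurons, Cajal-Retzius cells and mitral cells of the olfactory bulb, and Ndnf in Cajal-Retzius cells. In bulk tissue, fewer cells of a type and less RNA per cell cannot be told apart. All identifiers in the table were those of mouse genes, so the human graft was not measured as such, and whether some of its reads were counted for mouse genes was not tested.

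No difference between cell-treated and control libraries passed the test for any of the 7 genes. By edgeR's quasi-likelihood test with Benjamini-Hochberg adjustment over all 17042 genes, 0 of 7 passed an adjusted p of 0.05, and the share called over all genes was 0%. Counted at an unadjusted p under 0.05, 0 of 7 genes were called as well, against 2.0% of all genes (340 genes; 0.939% higher and 1.06% lower in cell-treated libraries). The cell-treated and control libraries overlapped in all 7 genes, whereas they did not overlap in 8.60% of all genes. Fitted log2 fold changes were above 0 for 6 genes and below 0 for Sncg, with a median of 0.41, and 50.2% of all genes were above 0 with a median of 0.0013. Without cell-treated library 1, 3 of the 7 were above 0 and the median was -0.018.

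The 3 cell-treated libraries differed from each other more than the 3 control libraries did in 6 of the 7 genes, Sncg being the exception. All genes tested leaned the same way, with a median SD of log2 CPM of 0.348 in cell-treated and 0.262 in control libraries. The share of all genes with a wider spread in cell-treated libraries was not counted. Total counts ran from 14880969 to 16696463 in cell-treated libraries and from 14221519 to 15607280 in control libraries. Cell-treated library 3 stood apart across genes, with a mean Pearson correlation of 0.936 to the other 5, against 0.963 to 0.968 for those. Marker lists of neighbouring tissue and of glia also set single libraries apart. Cell-treated library 1 held the highest value of 8 of 9 olfactory bulb genes, and its summed level of this list was 413 CPM (reads scaled by TMM-adjusted library size). The sums were 17.5 and 58.2 CPM in cell-treated libraries 2 and 3 and between 17.8 and 54.5 CPM in controls, and 2 of the 9, Tbx21 and Eomes, were at 0 in cell-treated library 2. Th, which makes the dopamine of bulb neurons, was at 44.5, 1.28 and 8.83 CPM in cell-treated libraries against 3.52, 1.89 and 4.35 CPM in control libraries. Control library 3 held the highest value of 12 of 12 striatal genes, with a sum of 1931 CPM, against 356 to 736 CPM in cell-treated libraries and 672 and 715 CPM in the other controls. Penk alone gave 423 CPM in cell-treated library 3 and 437 CPM in control library 3. Averaged over the 12 genes, log2 CPM minus its 6-library mean was -0.88, -0.67 and -0.70 in cell-treated libraries 1, 2 and 3. It was -0.0083, 0.45 and 1.81 in control libraries 1, 2 and 3, so the groups did not overlap on this scale. All 12 had log2 fold changes below 0 (median -1.78) and 10 an unadjusted p under 0.05 by edgeR, the smallest being those of Lrrc10b, Ppp1r1b, Adora2a, Rgs9 and Rxrg, at -2.32, -1.76, -2.59, -1.80 and -1.50 on the log2 scale. Without control library 3 these were -1.62, -1.37, -1.61, -1.07 and -1.17. Cell-treated library 3 held the highest value of 6 of 8 hippocampal genes, with a sum of 780 CPM against 120 to 278 CPM in the other 5. Of that sum, 702 CPM came from Wfs1 alone, which was at 65.7 to 202 CPM in the other 5 libraries. Ly6g6e, a further gene of this list, had a log2 fold change of 1.81 and an unadjusted p under 0.05 by edgeR. Cell-treated library 3 also had the lowest sum of 8 astrocyte genes, at 1167 CPM against 3868 to 6960 CPM elsewhere. Its sum of 8 oligodendrocyte genes was 3017 CPM, against 4833 to 8625 CPM in the other 5.

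**Figure D1:**
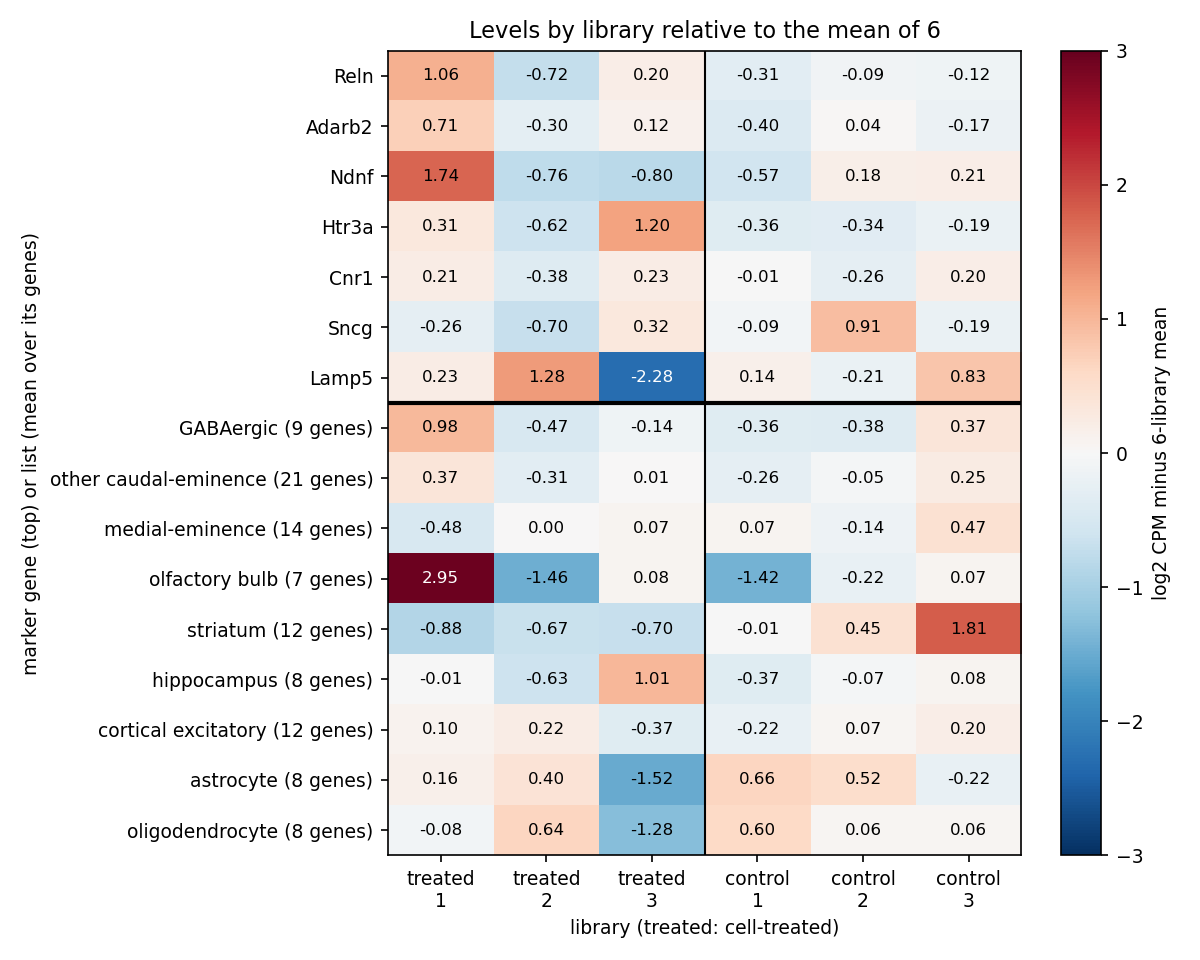
Each cell gives a library's log2 CPM (prior count 2) minus the mean of the 6 libraries, for single marker genes above the black line and averaged over the tested genes of a list below it; cell-treated libraries are left of the vertical line and control libraries right of it. Reln, Adarb2 and Ndnf have their highest value in cell-treated library 1, where the olfactory bulb list stands at 2.95, and Lamp5 its lowest, -2.28, in cell-treated library 3.

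Levels were compared between genes on the authors' FPKM scale, which divides by gene length. Lamp5, a lysosome-associated membrane protein of neurons, was the most abundant, at 37.5 ± 22.9 FPKM over the 6 libraries (SD, n = 6). Cnr1 followed at 21.7 ± 3.84 FPKM, above 86.5% of all genes tested. The other 5 genes lay between 1.49 and 3.19 FPKM: Reln at 3.19 ± 1.54, Htr3a at 3.19 ± 1.85, Sncg at 2.58 ± 1.16, Ndnf at 1.93 ± 1.65 and Adarb2 at 1.49 ± 0.468 FPKM (SD, n = 6 each). Cnr1 exceeded Reln in 6 of 6 libraries, by 18.5 ± 3.14 FPKM, and no other pair of neighbours in this order differed by more than the spread of its difference. Lamp5 exceeded Cnr1 in 5 of 6 libraries, the exception being cell-treated library 3, and Reln exceeded Htr3a in 4 of 6 by a mean of 0.0072 FPKM.

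**Figure D2:**
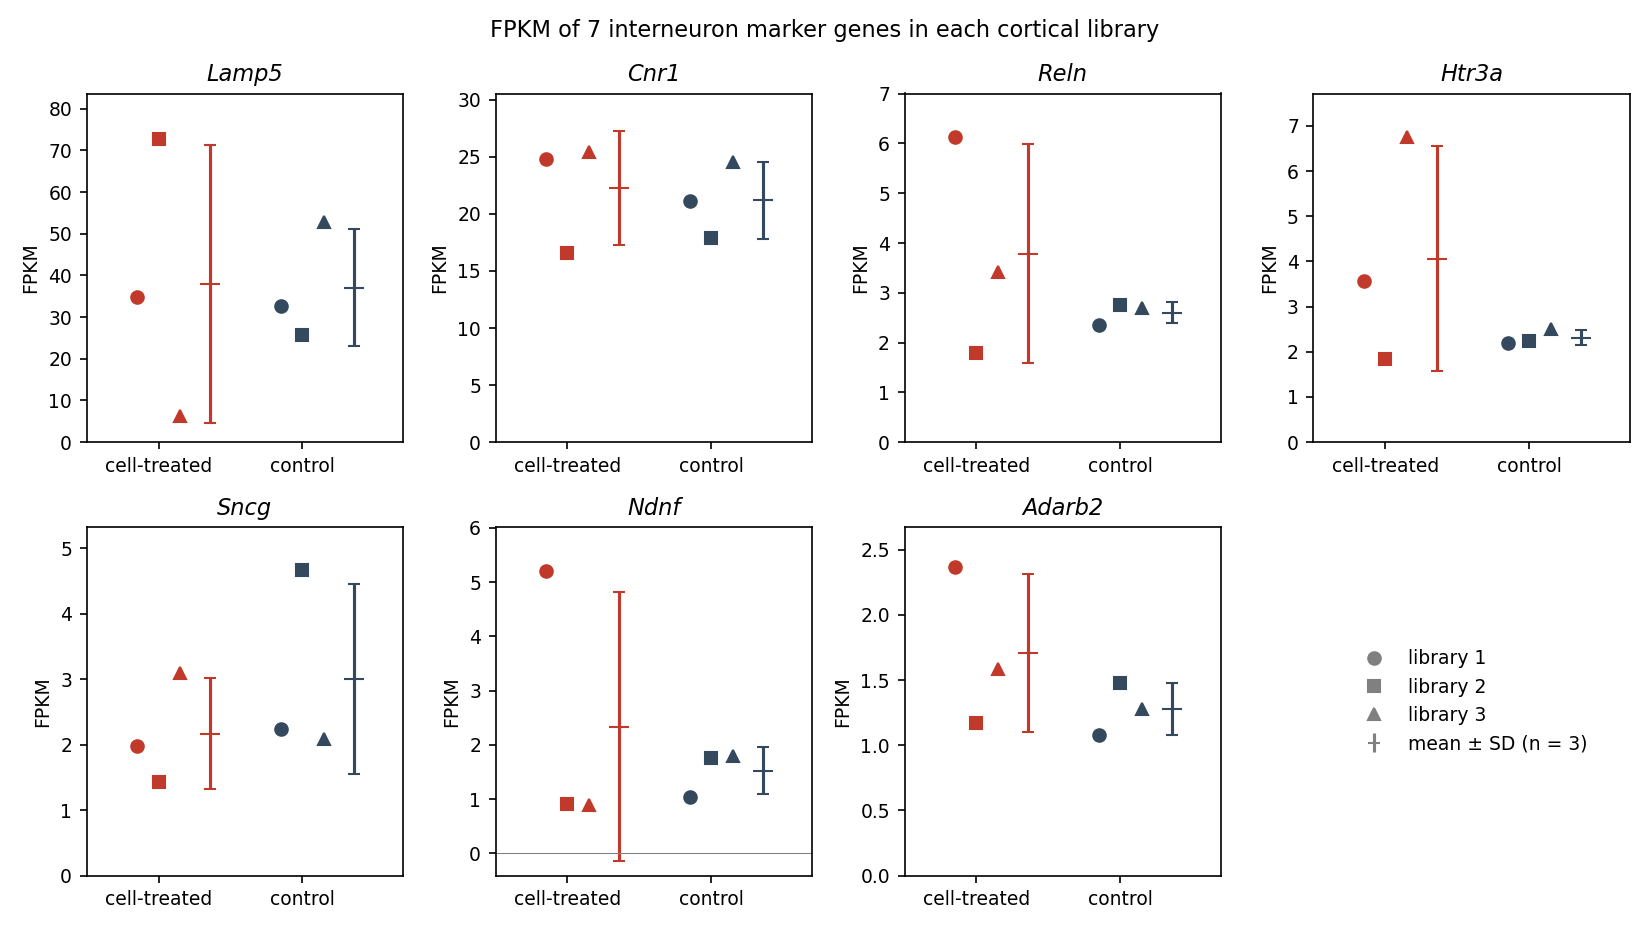
Points give FPKM in each library, with cell-treated libraries (red) left of control libraries (dark blue) and bars for the mean ± SD of 3 libraries; genes are ordered by mean level and each panel has its own axis. Cell-treated values of Lamp5 run from 6.19 to 72.7 FPKM and enclose the 3 controls, and Reln and Htr3a spread more widely among cell-treated than among control libraries.

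Lamp5 (ENSMUSG00000027270, chromosome 2, 136052239 to 136069917, plus strand; GRCm38 here and for the genes that follow) had the widest range over the libraries of the 7 genes on the log2 scale, whereas Ndnf had the largest SD relative to its mean FPKM, 85.6% against 61.1% for Lamp5. It stood at 102, 213 and 18.0 CPM in cell-treated libraries 1, 2 and 3, against 96.8, 75.8 and 156 CPM in control libraries 1, 2 and 3. Both the highest and the lowest value were thus in cell-treated libraries, 11.9-fold apart, and the controls lay between them. Group means were 111 ± 98.0 CPM in cell-treated libraries and 109.6 ± 41.7 CPM in controls (SD, n = 3 each), and the log2 fold change was 0.021 ± 0.711 (SE), with a 95% interval from -1.62 to 1.67 and an adjusted p of 0.999 by edgeR. The interval is so wide that it includes a 2-fold difference in either direction. Leaving out cell-treated library 3 gave a log2 fold change of 0.52, and leaving out cell-treated library 2 gave -0.87. The sign also turned without control library 1 (-0.062) and control library 2 (-0.19). The range of Lamp5 over the 6 libraries, 3.56 on the log2 scale, exceeded that of 98.6% of all genes tested, whose median range was 0.90. Its low value fell in the library with the low astrocyte and oligodendrocyte sums given above, and their part in it was not tested. The 12 markers of cortical excitatory neurons were divided in that library: they had their highest sum there, 2143 CPM, and also their lowest mean centred log2 CPM, -0.37. Slc17a7, the vesicular glutamate transporter of these cells, was highest there at 1409 CPM, whereas Rorb, a transcription factor of the middle layers, was lowest at 21.9 CPM. Rasgrf2, a further gene of this list, was at 196, 194 and 270.4 CPM in cell-treated libraries against 179.7, 185.4 and 185.0 CPM in control libraries. The groups did not overlap for Rasgrf2, as for 4.30% of all genes in this direction, and its unadjusted p was 0.1996 by edgeR. Among other proteins of the family, Lamp1 was at 130 ± 15.2 FPKM in cell-treated libraries and 120 ± 15.5 FPKM in controls, and Lamp2 at 16.1 ± 2.66 and 13.2 ± 2.61 FPKM (SD, n = 3 each). Cd68, the macrophage member, was at 35.3 ± 16.9 FPKM in cell-treated libraries and 29.6 ± 10.4 FPKM in control libraries.

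Sncg (ENSMUSG00000023064, chromosome 14, 34370274 to 34374789, minus strand), which encodes gamma-synuclein, was the least counted of the 7. It had 27, 18 and 42 reads in cell-treated libraries 1, 2 and 3, against 28, 57 and 28 reads in control libraries 1, 2 and 3. Exact Poisson 95% intervals, which cover counting error only, ran from 10.7 to 28.4 reads for the lowest of these, cell-treated library 2, and from 43.2 to 73.9 reads for the highest, control library 2. The interval of control library 2 overlapped that of cell-treated library 3, which ran from 30.3 to 56.8 reads, and none of the other 4. On the CPM scale the means were 1.84 ± 0.710 in cell-treated libraries and 2.57 ± 1.23 in controls (SD, n = 3 each), and the log2 fold change was -0.48 ± 0.474 (SE; 95% interval -1.57 to 0.62; adjusted p 0.999, edgeR). It was -0.015 without control library 2 and -0.81 without cell-treated library 3. Sncb, which encodes beta-synuclein, was far more abundant per length, at 107 ± 5.56 FPKM in cell-treated libraries and 123 ± 29.6 FPKM in controls (SD, n = 3 each). Its log2 fold change of -0.21 ± 0.208 (SE) did not pass.

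Reln and Adarb2 followed the most similar course over the libraries among the 21 pairs that the 7 genes form. Their centred log2 CPM profiles differed by a root mean square of 0.23, whereas the other pairs differed by 0.33 to 1.68. Since this pair carries the closest pattern, the 250 bases before the annotated start of each gene are printed, 5′ to 3′ on the gene's strand, from RefSeq on GRCm38.p6. Capitals mark matches, on either strand, to the GC box GGGCGG that Sp1-family proteins bind, the E-box CACGTG and the homeodomain core TAATTA. The windows are chr5:22344706-22344955 on the minus strand for Reln and chr13:8202616-8202865 on the plus strand for Adarb2.
Reln: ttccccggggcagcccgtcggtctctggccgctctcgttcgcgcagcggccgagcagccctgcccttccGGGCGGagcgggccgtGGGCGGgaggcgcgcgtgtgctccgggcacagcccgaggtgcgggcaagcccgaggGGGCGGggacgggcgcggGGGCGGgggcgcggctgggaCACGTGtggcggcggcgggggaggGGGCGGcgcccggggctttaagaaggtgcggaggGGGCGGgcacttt
Adarb2: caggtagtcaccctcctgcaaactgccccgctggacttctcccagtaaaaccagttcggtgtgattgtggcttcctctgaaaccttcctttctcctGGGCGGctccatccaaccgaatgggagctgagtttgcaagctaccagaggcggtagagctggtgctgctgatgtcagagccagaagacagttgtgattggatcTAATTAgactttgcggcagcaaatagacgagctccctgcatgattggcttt
The Reln window was 80% G and C, higher than 98.8% of 32817 such windows in the RefSeq table, and held 6 GC boxes, 1 E-box and 37 CpG dinucleotides. The Adarb2 window was 52.8% G and C, close to the median of 52.4%, and held 1 GC box, 1 homeodomain core and 7 CpG. Over all windows, 32.7% held a GC box, 6.02% the E-box and 4.85% the homeodomain core. No match overlapped another in the printed windows. These are matches of letters, and no binding was measured. Promoter entries were found for 5 of the 7 genes, and Ndnf and Htr3a had none.

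Reln (ENSMUSG00000042453, chromosome 5, 21884454 to 22344702, minus strand) encodes reelin, a large secreted glycoprotein that guides neuronal layering and, in the adult cortex, acts on synapses. It stood at 146, 42.6 and 80.4 CPM in cell-treated libraries 1, 2 and 3, against 56.5, 65.8 and 64.4 CPM in control libraries 1, 2 and 3. The controls lay close together, and cell-treated library 1 was above and cell-treated library 2 below all of them. The mean was 89.7 ± 52.4 CPM in cell-treated libraries and 62.2 ± 4.98 CPM in controls (SD, n = 3 each), with a log2 fold change of 0.53 ± 0.389 (SE; 95% interval -0.37 to 1.43) and an adjusted p of 0.999 by edgeR. Without cell-treated library 1, the library with the high olfactory bulb genes, the log2 fold change was -0.018. Without cell-treated library 2 it was 0.86, at an unadjusted p of 0.0131 and an adjusted p of 0.930 by edgeR. The part of those genes in the Reln value was not tested. Genes of Cajal-Retzius cells, which also make Reln, summed to 113 to 133 CPM in cell-treated libraries and 112 to 153 CPM in controls, a sum made up mostly of 2 of the 8 genes. The mean centred log2 CPM of the 5 tested genes was 0.41, -0.57 and -0.45 in cell-treated libraries 1, 2 and 3, against 0.14, 0.27 and 0.20 in control libraries 1, 2 and 3. Of the 8, 4 (Trp73, Lhx1, Lhx5 and Ebf3) were highest in cell-treated library 1, where Reln was also highest. The other 4 were highest in control libraries 1, 2 and 3 and cell-treated library 3, 1 gene in each. Lhx1 and Lhx5 did not pass the filter on low counts. They had 8 and 13 reads in cell-treated library 1, and Lhx5 had 10 in control library 3. Trp73, a transcription factor of Cajal-Retzius cells, was at 2.13, 0.338 and 0.435 CPM in cell-treated libraries, against 1.66, 1.19 and 1.28 CPM in control libraries. The part of these cells in the Reln value was not tested.

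None of the receptors and relays of reelin passed. Of 9 such genes, 8 had log2 fold changes above 0 and 1 below, with a median of 0.19, and 0 passed the test over all genes. Vldlr and Lrp8, the reelin receptors, had -0.18 and 0.28, Dab1, the adaptor phosphorylated after reelin binds, 0.0023, and Fyn, a kinase that phosphorylates it, 0.11. The adaptors Crk and Crkl had 0.23 and 0.17, and the integrin subunits Itga3 and Itgb1 0.19 and 0.26. Rap1a, a small GTPase, was at 61.5, 58.7 and 59.0 CPM in cell-treated libraries against 52.1, 48.7 and 47.4 CPM in control libraries. The groups did not overlap for Rap1a, as for 4.30% of all genes in this direction, and its log2 fold change was 0.27 ± 0.144 (SE) with an unadjusted p of 0.0929 by edgeR.

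Adarb2 (ENSMUSG00000052551, chromosome 13, 8202866 to 8768747, plus strand), a relative of the RNA-editing deaminases without known editing activity, marks caudal-eminence neurons from early in their development. It stood at 31.1, 15.4 and 20.6 CPM in cell-treated libraries 1, 2 and 3, against 14.3, 19.4 and 16.9 CPM in control libraries 1, 2 and 3. Cell-treated libraries 1 and 3 were above all controls, and cell-treated library 2 lay among them. The means were 22.4 ± 8.01 CPM in cell-treated libraries and 16.9 ± 2.57 CPM in controls (SD, n = 3 each), and the log2 fold change was 0.41 ± 0.284 (SE; 95% interval -0.25 to 1.06). It did not pass (adjusted p 0.999, edgeR), and it was 0.093 without cell-treated library 1. Antisense and overlapping identifiers summed to 6.32% of the Adarb2 reads, 1.95% of the Htr3a reads and 0.841% of the Reln reads, and since a strand-marking kit is not named, some reads can be shared with them. The active deaminases Adar and Adarb1 were more abundant, at 16.4 ± 0.620 and 27.5 ± 4.43 FPKM in cell-treated libraries, against 15.2 ± 1.0 and 22.7 ± 2.68 FPKM in controls (SD, n = 3 each), with log2 fold changes of 0.10 and 0.26 that did not pass.

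Ndnf (ENSMUSG00000049001, chromosome 6, 65671590 to 65712326, plus strand), a secreted neurotrophic factor that marks neurogliaform cells of the outermost layer, had 1 library far above the rest. It stood at 52.8, 9.25 and 8.96 CPM in cell-treated libraries 1, 2 and 3, against 10.6, 17.9 and 18.2 CPM in control libraries 1, 2 and 3. Cell-treated library 1 was above all others, and the other 2 cell-treated libraries were below every control. Means were 23.7 ± 25.2 CPM in cell-treated libraries and 15.6 ± 4.32 CPM in controls (SD, n = 3 each), and the log2 fold change was 0.61 ± 0.672 (SE; 95% interval -0.95 to 2.16; adjusted p 0.999, edgeR). Without cell-treated library 1 it turned to -0.77, at an unadjusted p of 0.0478 and an adjusted p of 0.996. Adjusted p-values for Ndnf were at least 0.554 over all alternatives. The olfactory bulb genes moved with this library as described for Reln, and their part was not tested.

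Htr3a (ENSMUSG00000032269, chromosome 9, 48899213 to 48911099, minus strand) encodes the obligatory subunit of the ionotropic serotonin receptor, which nearly all caudal-eminence interneurons carry. It stood at 7.46, 3.85 and 13.9 CPM in cell-treated libraries 1, 2 and 3, against 4.63, 4.70 and 5.24 CPM in control libraries 1, 2 and 3. The controls were almost equal, cell-treated libraries 1 and 3 lay above them and cell-treated library 2 below. Means were 8.42 ± 5.11 CPM in cell-treated libraries and 4.85 ± 0.337 CPM in controls (SD, n = 3 each). Its log2 fold change, 0.79 ± 0.447 (SE; 95% interval -0.24 to 1.83), was the highest of the 7 and had the smallest unadjusted p, 0.114, with an adjusted p of 0.999 by edgeR. It was 0.22 without cell-treated library 3, the library that stood apart across genes, and 1.14 without cell-treated library 2, at an unadjusted p of 0.0156 and an adjusted p of 0.930. The partner subunit Htr3b was listed at 0 FPKM in 5 of the 6 libraries and at 0.0849 FPKM in control library 1.

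Cnr1 (ENSMUSG00000044288, chromosome 4, 33924593 to 33948831, plus strand), the cannabinoid receptor of inhibitory and some excitatory terminals, was the steadiest of the 7. It stood at 160.5, 107 and 162 CPM in cell-treated libraries 1, 2 and 3, against 138, 116 and 159.6 CPM in control libraries 1, 2 and 3. All 6 libraries lay within 1.52-fold of each other and the groups overlapped almost wholly. The means of 143 ± 31.5 CPM in cell-treated libraries and 138 ± 22.0 CPM in controls (SD, n = 3 each) gave a log2 fold change of 0.056 ± 0.221 (SE; adjusted p 0.999, edgeR), with a 95% interval from -0.45 to 0.57, the narrowest of the 7. The sign turned without cell-treated library 1 (-0.035), cell-treated library 3 (-0.044) or control library 2 (-0.056). Of 9 other cannabinoid genes, 4 had log2 fold changes above 0 and 5 below, with a median of -0.0034, and 0 passed. Dagla and Daglb, which make the lipid ligand, had -0.037 and -0.29, and Mgll, which degrades it, had -0.14. The hydrolases Faah, Abhd6 and Abhd12 had -0.22, 0.029 and 0.10, Napepld had -0.0034, and the receptor-interacting Cnrip1 had 0.24. The second receptor, Cnr2, was at 0.567 ± 0.395 FPKM in cell-treated libraries and 0.468 ± 0.145 FPKM in controls (SD, n = 3 each).

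**Figure D3:**
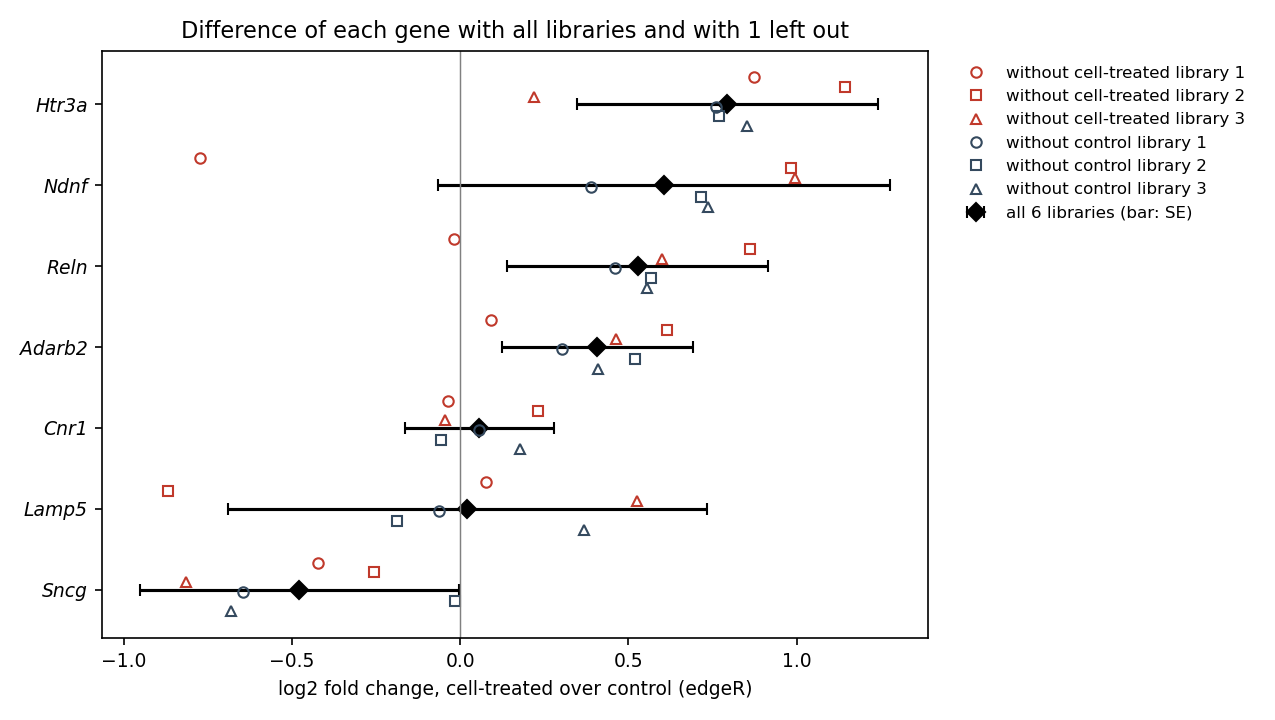
Black diamonds give the edgeR log2 fold change of cell-treated over control with all 6 libraries (bars, SE), and open symbols the same with a single library left out (red, a cell-treated library; dark blue, a control library). Ndnf moves to -0.77 and Reln to -0.018 without cell-treated library 1, Lamp5 to -0.87 without cell-treated library 2, and Htr3a to 0.22 without cell-treated library 3.

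The 7 genes were also set against the general inhibitory signal of each tissue piece. That signal was the mean log2 CPM of Gad1 and Gad2, which make GABA, and Slc32a1, which loads it into vesicles. It stood at 8.21, 7.0 and 8.08 in cell-treated libraries 1, 2 and 3 and at 7.36, 6.90 and 8.09 in control libraries 1, 2 and 3. Relative to it, the groups overlapped in all 7 genes, whereas they did not overlap in 0.927% of all genes. Reln then averaged -1.45 ± 0.384 in cell-treated libraries and -1.49 ± 0.611 in control libraries, and Adarb2 -3.33 ± 0.342 and -3.37 ± 0.706 (log2, SD, n = 3 each). Their mean differences were 0.038 and 0.040, less than the spread in either group. Lamp5 had nearly the same relative value in the 3 controls, -0.74 ± 0.0768, and ranged in cell-treated libraries from 0.74 (library 2) to -3.90 (library 3). Relative Htr3a differed by 0.28, Ndnf by -0.20, Cnr1 by -0.27 and Sncg by -0.74 (cell-treated minus control), each less than the larger of its 2 group SDs. These are descriptions. Gad1 itself was highest in cell-treated library 1, at 954 CPM, Gad2 in cell-treated library 3, at 405 CPM, and Slc32a1 in control library 3, at 123 CPM. The signal of the 3 genes was highest in cell-treated library 1, which had the highest olfactory bulb sum. It was nearly equal in control library 3, which had the highest striatal sum, and in cell-treated library 3, at 8.09 and 8.08. The part of neighbouring tissue in that signal was not tested, so it cannot be read as that of cortical inhibitory neurons alone.

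**Figure D4:**
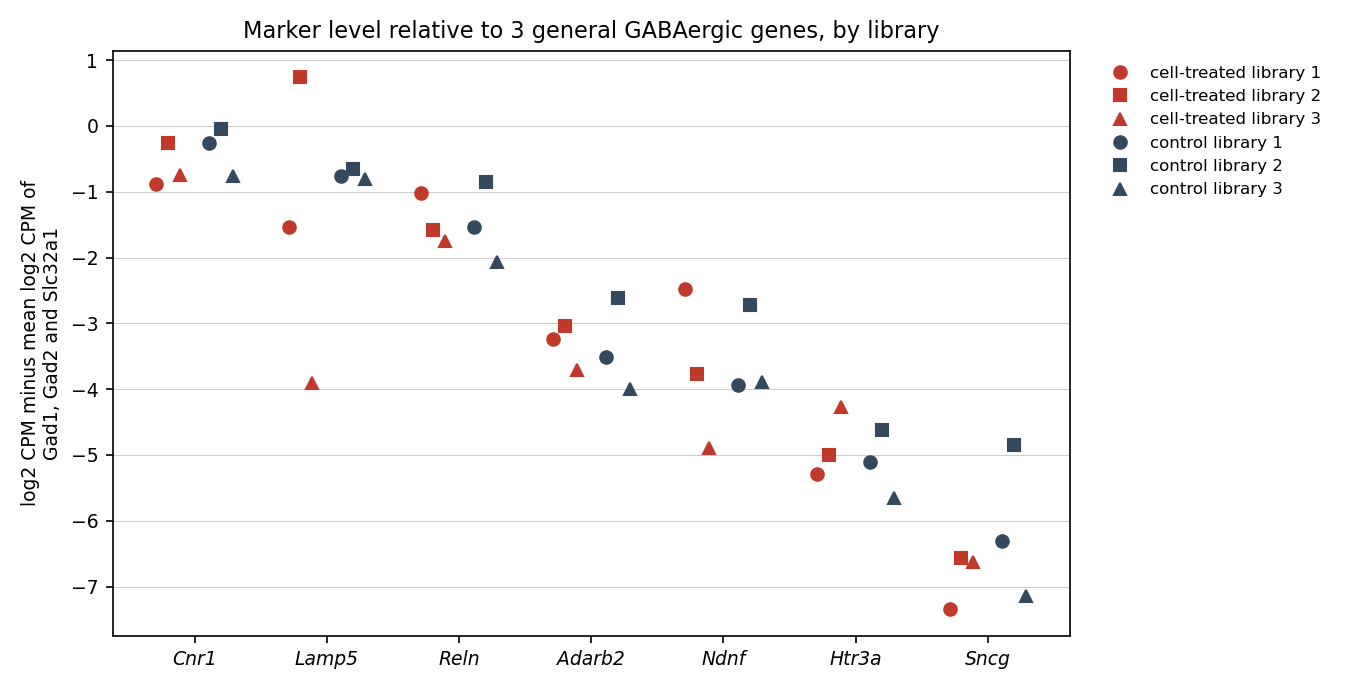
Points give each gene's log2 CPM minus the mean log2 CPM of Gad1, Gad2 and Slc32a1 in the same library, with cell-treated libraries (red) left of control libraries (dark blue) and the symbol marking the library number. The 3 control values of Lamp5 lie together near -0.74 while its cell-treated values run from -3.90 to 0.74.

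Other genes of caudal-eminence interneurons were taken from a list of 22, of which 21 passed the filter on low counts. Of these, 12 had log2 fold changes above 0 and 9 below, with a median of 0.075, and 0 passed the test over all genes. Of the 21, 2 (Chat and Sp8) had an unadjusted p under 0.05 by edgeR, against 2.0% of all genes. Sp8, a transcription factor of caudal-eminence and olfactory bulb neurons, was at 60.5, 2.57 and 2.05 CPM in cell-treated libraries 1, 2 and 3, against 1.45, 1.54 and 3.90 CPM in control libraries. Its log2 fold change was 3.23 ± 1.28 (SE) and 0.0015 without cell-treated library 1. Chat, the acetylcholine-making enzyme that some Vip neurons carry, was at 0.564, 0.473 and 0.995 CPM in cell-treated libraries against 0.759, 2.38 and 8.05 CPM in control libraries, a log2 fold change of -2.45 ± 0.828 (SE), or -1.20 without control library 3. Striatal cholinergic neurons also carry Chat, and control library 3 was the one with the highest striatal genes. The part of striatal tissue in the Chat values was not tested. Log2 fold changes of more than 1 in size were also fitted for Npy (2.04), Calb2 (1.59) and Slc17a8 (-1.17), with unadjusted p-values of 0.0683, 0.246 and 0.0893 by edgeR. Npy, a peptide of neurogliaform and somatostatin cells, was -0.13 without cell-treated library 3, Calb2, a calcium-binding protein, -1.70 without cell-treated library 1, and Slc17a8, a vesicular glutamate transporter, -0.17 without control library 3.

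Vip, Cck and Id2, markers of caudal-eminence classes, had log2 fold changes smaller than their standard errors. Vip, the peptide of interneurons that inhibit other interneurons, was at 36.8, 36.3 and 41.6 CPM in cell-treated libraries, against 34.7, 29.4 and 44.7 CPM in control libraries. Its log2 fold change was 0.075 ± 0.198 (SE). Cck, a peptide found in the basket cells that carry Cnr1, had -0.16 ± 0.282, and Id2, a regulator of transcription found in neurogliaform cells, -0.029 ± 0.198 (SE). Cck was at 157 FPKM over the 6 libraries, above Gad1 at 62.3 FPKM, and bulk values do not assign it to the basket cells. Cxcl14, a chemokine of caudal-eminence neurons, was at 104, 137 and 58.5 CPM in cell-treated libraries against 173, 144 and 151 CPM in control libraries. The groups did not overlap for Cxcl14, as for 4.30% of all genes in this direction, with a log2 fold change of -0.64 ± 0.294 (SE) and an unadjusted p of 0.0606 by edgeR. It was -0.37 without cell-treated library 3. For the medial eminence, 5 of 14 genes were above 0 and 9 below, with 0 that passed. Pvalb had -0.39 ± 0.528 and Sst -0.30 ± 0.454 (log2 fold change, SE). Tac1 had -2.21 ± 0.682, at an unadjusted p of 0.0120 by edgeR, and -0.88 without control library 3. It was at 117 CPM in control library 3, the one with the highest striatal genes, against 8.64 to 24.3 CPM in the others. The part of striatal tissue in the Tac1 values was not tested. The groups did not overlap for Tac1, as for 4.30% of all genes in this direction.

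**Figure D5:**
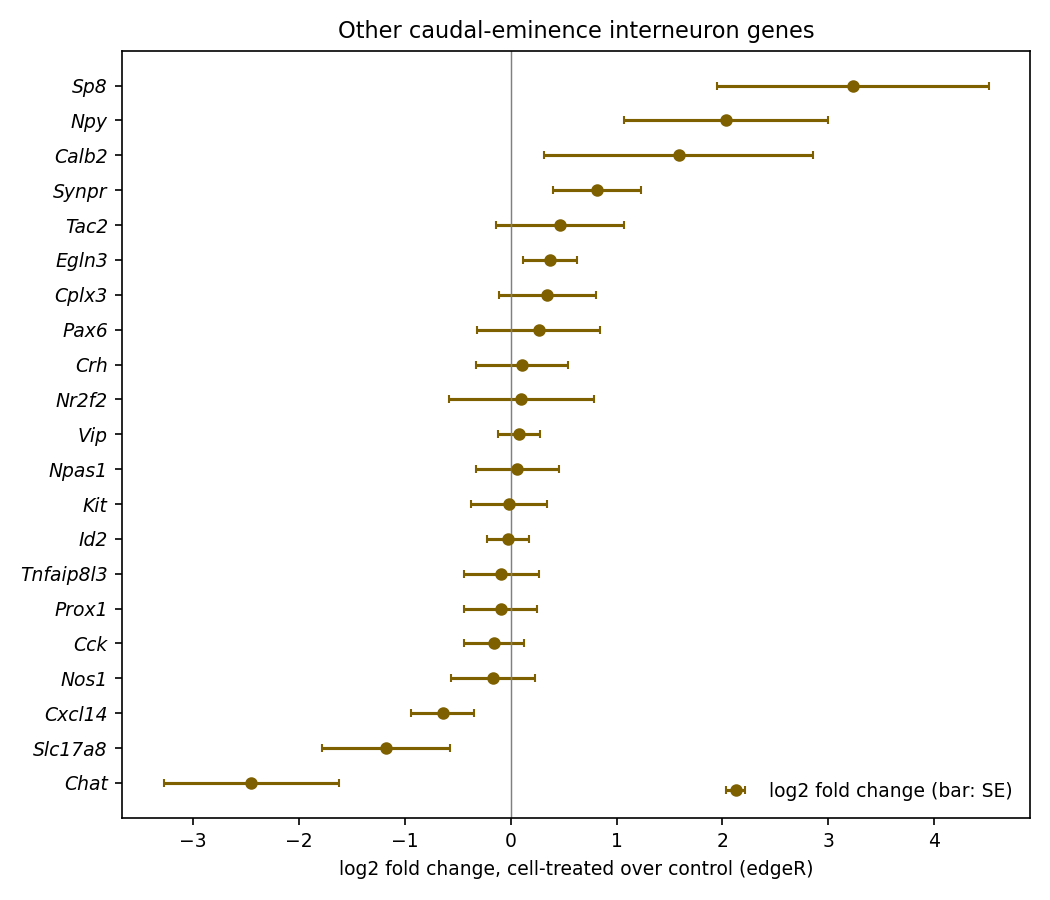
Points give the edgeR log2 fold change of cell-treated over control (bars, SE) for the 21 tested caudal-eminence genes other than the 7 markers, ordered by value. Values run from -2.45 for Chat to 3.23 for Sp8, with Vip at 0.075 and Id2 at -0.029.

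For each of the 7 genes, the 3 genes with the closest profile over the 6 libraries were listed by the smallest root mean square difference of centred log2 CPM. The closest to Reln were Synpr, a synaptic vesicle protein, at 0.15, Bend7 at 0.19 and Adarb2 at 0.23. Synpr stood at 282, 73.8 and 160.5 CPM in cell-treated libraries, against 86.4, 105 and 103 CPM in control libraries, so its order over libraries matched that of Reln. Among the closest to Lamp5 were Sptssb, a subunit of the sphingolipid-making palmitoyltransferase, at 0.20 and Ddit4l at 0.22. The closest to Ndnf were Ablim3, Meis2, a homeodomain factor of striatal and olfactory bulb neurons, and Fabp7, a lipid-binding protein of radial glia, at 0.18, 0.21 and 0.23. Ralgps2, Prune2 and Fam102b came closest to Adarb2, Man1a, Ptger3 and Creb3l1 to Htr3a, Med26, Dsel and Ppie to Cnr1, and Bvht, Map3k15 and Ubap1l to Sncg, at 0.052 to 0.21. With only 6 libraries and many genes compared, close profiles arise for any gene, so these are descriptions.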

How the data were processed

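Sample titles gave the groups. All libraries carry the same batch label. The deposited counts are whole-number read counts per gene. HISAT2 2.0.5, featureCounts and DESeq2 are the tools listed, without settings, per the submitters' processing notes. The deposited FPKM equalled counts divided by gene length and by the count total times 0.953 to 1.03, a scaling chosen by the authors. A table of group FPKM repeating these columns was not used. Per the labels' protocols, polyadenylated RNA was primed with random hexamers and amplified. No build is named in the sources used here. Coordinates of all 7 genes equalled GENCODE M21 (GRCm38).

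The test was that of edgeR 4.0.16 (R 4.3.3): filterByExpr (minimum count 10, minimum total 15), TMM, robust quasi-likelihood F test, two-sided, Benjamini-Hochberg over all genes. SEs derive from F, and 95% intervals from the moderated degrees of freedom. P-values measure the spread among 3 libraries per group, which the design text calls biological replicates. Log2 CPM used a prior count of 2.

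The genes and lists were chosen with earlier results of these data known. Named genes are the 7, members of small families, up to 5 per longer list at an unadjusted p under 0.05 or without overlap, 8 fixed GABAergic and interneuron genes, and the 3 closest profiles (average log2 CPM of at least 1, a range of at least 0.5 times the gene's own). Slc17a7, Rorb, Tbx21, Eomes, Trp73, Ebf3, Lhx1, Lhx5, Npy, Calb2, Slc17a8, Penk and Wfs1 were named after their values were seen. Some genes that the rule selects are not reported here. Alternatives were DESeq2 1.42.0, limma 3.58.1 (voom, log2(FPKM + 1), log2(FPKM + 0.1)), other scalings and filters, a replicate block and libraries left out. The test was checked on simulated data. Same-numbered libraries deviated with correlations of -0.277, 0.0815 and 0.0728, so numbers were not taken as pairs. Figures used matplotlib 3.10.9.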

Additional observations from a re-analysis of the deposited data

How the results depend on the processing

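No setting brought any of the 7 genes past the threshold: over 19 alternatives the smallest adjusted p was 0.472 (Adarb2). Adarb2, Htr3a and Sncg kept their sign in all 19. Lamp5 turned to -0.51 by limma voom, -0.45 and -0.49 by limma on log2(FPKM + 1) and log2(FPKM + 0.1), and -0.39 with the replicate block; leaving out library 3 of both groups gave 0.87. Ndnf was -0.64 with cell-treated library 1 and control library 3 both left out, a setting chosen after seeing the data. With single libraries left out, log2 fold changes ran from -0.87 to 0.52 for Lamp5, -0.056 to 0.23 for Cnr1, -0.77 to 0.99 for Ndnf, -0.018 to 0.86 for Reln, 0.093 to 0.61 for Adarb2, 0.22 to 1.14 for Htr3a and -0.81 to -0.015 for Sncg. Of these, 3 had an unadjusted p under 0.05 by edgeR: Ndnf without cell-treated library 1, and Reln and Htr3a without cell-treated library 2. In the same fits, 388 of 17514 genes were under 0.05 without cell-treated library 1 and 653 of 17562 without cell-treated library 2. With all libraries, 340 of 17042 were. The cause of the shifts in log2 fold change was not tested beyond which library was left out.

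Over all genes, the count past the threshold was 0 by edgeR, 11 by DESeq2 and 1 by edgeR with no filter beyond a total above 0, none of them among the 7 or the other caudal-eminence genes; it was 0 under the other 17. At an unadjusted p under 0.05 it ran from 203 without control library 2 to 1899 by voom with sample quality weights. The replicate block gave 0 calls and 319 genes at an unadjusted p under 0.05, against 340 without it, and 1 of 6 libraries deviated most like its own number. Depth limits Sncg, at 18 to 57 reads per library, more than the other 6 genes.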
